A study of Mus musculus with 6 samples.

Results

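The genes described here encode 4 families of guidance cues and their receptors: semaphorins with plexins and neuropilins, ephrins with Eph receptors, Slits with Robo receptors, and netrins. They were taken from the deposited counts by gene symbol, and all 64 genes with such a symbol were kept, of 27179 genes in all and 25275 that could be given a symbol. The 64 comprise 20 semaphorins, 9 plexins, 2 neuropilins, 8 ephrins, 14 Eph receptors, 3 Slits, 4 Robo receptors and 4 netrins. The RNA came from 3 immortalized mouse embryonic fibroblast (MEF) lines of C57BL/6 strain, with 2 libraries per line made from independent RNA preparations of growing cultures. The genotypes are cry1-/-, cry2-/-, per1-/-, per2-/- (Cry/Per_KO), the same with nr1d1-/- and nr1d2-/- (Cry/Per/Nr1d_KO), and per1-/-, per2-/-, nr1d1-/-, nr1d2-/- (Per/Nr1d_KO). All 3 lines thus carry the Per1 and Per2 mutations, none was treated, and no wild-type line was sequenced. Cry/Per/Nr1d_KO was raised from Cry/Per_KO as a single colony after lentiviral CRISPR targeting of Nr1d1 and Nr1d2, whereas Per/Nr1d_KO is a separate line made earlier with the same guides. Each genotype is therefore 1 line, and a difference between lines cannot be told apart from an effect of the mutated genes. The p-values measure only the spread between 2 RNA preparations of a line.

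For 4 libraries the genotype label gives Cry/Per_KO or Cry/Per/Nr1d_KO while the deposited count table is named for the other of these lines. They were grouped by genotype label and are called the pair labelled Cry/Per_KO and the pair labelled Cry/Per/Nr1d_KO. Arntl, which NR1D proteins repress, had 2176 and 2208 normalized counts in the pair labelled Cry/Per_KO and 1192 and 1171 in the pair labelled Cry/Per/Nr1d_KO, and was thus lower in the pair labelled as lacking NR1D. In Per/Nr1d_KO, which also lacks NR1D, Arntl had 2493 and 2455, a called 2.09-fold above the pair labelled Cry/Per/Nr1d_KO and 1.13-fold above the pair labelled Cry/Per_KO, which was not called. Transcripts of the targeted genes were present in every library. Nr1d1 had 9337 and 9249 normalized counts in the pair labelled Cry/Per_KO and 3158 and 3146 in the other, Cry1 had 5323 and 5478 against 1698 and 1724, and Per1 had 5644 and 5793 against 3066 and 3062. The study reports Arntl, Cry1, Nr1d1 and Per1 mRNA as lower in Cry/Per_KO than in Cry/Per/Nr1d_KO. Between the labelled pairs all of these genes ran the opposite way. The study also describes Arntl in Per/Nr1d_KO as similar to Cry/Per/Nr1d_KO. Here Arntl in Per/Nr1d_KO lay nearer the pair labelled Cry/Per_KO, as given above. The labels were kept as given, since a library's group was not inferred from its values, and which name is right was not tested. Grouped by the names of the count tables, these pairs trade places, and the genes just named run in the direction the study gives. Every difference between the pairs then turns its direction. Values of Per/Nr1d_KO keep their size but change the name of the pair they are set against. Each pair name and direction in this text thus depends on the labels. Totals ran from 53764390 to 85927236 counts per library. Of 10 fibroblast markers, 8 were expressed above the level for testing, among them Col1a1, Fn1, Vim and Pdgfra, whereas Thy1 (0 to 6.21 normalized counts) and Lum (0 to 9.77) were near or at 0. None of 7 endothelial or 7 epithelial markers reached that level, with summed values of 83.5 to 225 and 26.5 to 218 normalized counts per library, and the endothelial gene Tie1 had no count. The epithelial gene Cdh1 had 100.1 and 110.5 normalized counts in Per/Nr1d_KO against 7.99 to 27.8 in the 4 other libraries. Esrp1, also of that list, had 140 and 153 in the pair labelled Cry/Per/Nr1d_KO against 0 to 12.2 elsewhere. Markers of fibroblasts and smooth muscle differed between the lines: Col3a1 had 42810 and 43797 normalized counts in Per/Nr1d_KO against 289 to 836 in the 4 other libraries, S100a4 8080.3 and 9659 against 27144 to 64465, and the smooth muscle gene Cnn1 3633 and 3687 against 13.3 to 23.6. Of the other smooth muscle genes, Acta2 had 81254 and 80424 in Per/Nr1d_KO, between 46063 and 47586 (labelled Cry/Per_KO) and 119470 and 116052 (labelled Cry/Per/Nr1d_KO). Myh11 was lowest in Per/Nr1d_KO, at 22.8 and 17.4. Des, which was not tested, was highest there, at 110.3 and 91.5, against 82.6 and 74.4 (labelled Cry/Per/Nr1d_KO). In the pair labelled Cry/Per_KO, Des had 30.05 and 25.5 normalized counts. The part of these differences in the values of the guidance genes was not tested. In bulk RNA, fewer cells of a kind and less RNA per cell cannot be told apart.

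Guidance cues were first known for steering growing axons, and many act in the same way on fibroblasts, endothelial cells and migrating neural crest cells, where they collapse or extend the cell edge. Class 3 semaphorins are secreted and mostly bind a neuropilin that is paired with a plexin, while semaphorins of classes 4 to 7 are held at the membrane and bind plexins directly. Ephrins are membrane-bound ligands, attached by a lipid anchor in the A class and by a transmembrane stretch in the B class, and signal with Eph receptor kinases on the neighbouring cell. Slits are large secreted proteins that bind Robo receptors, and netrins are laminin-related secreted proteins read by DCC, neogenin and UNC5 receptors.

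Of the 64 guidance genes, 49 reached a mean of 100 normalized counts over the 6 libraries and were tested, 35 of them above that level in every line, and 15 stayed below it. A normalized count is a read count scaled by the TMM method to the mean effective library size. A gene was called when edgeR's quasi-likelihood test, with its Benjamini-Hochberg adjusted p, stood below 0.05 and its log2 fold change exceeded 0.81 in either direction. Against the pair labelled Cry/Per/Nr1d_KO, 25 of the 49 were called in Per/Nr1d_KO (51.0%), beside 20.7% of all 11934 genes tested. Of these, 14 were higher and 11 lower, where 11.3% and 9.35% of all genes were. Against the pair labelled Cry/Per_KO, 26 were called in Per/Nr1d_KO (53.1%), 17 higher and 9 lower, beside 29.0%, 15.2% and 13.8% of all genes. The Per/Nr1d_KO libraries enter both of these comparisons. Between the pair labelled Cry/Per_KO and the pair labelled Cry/Per/Nr1d_KO, 24 of the 49 guidance genes were called, 9 higher and 15 lower in the former, beside 16.8%, 7.86% and 8.95% of all genes. The median size of the log2 fold change was 0.81, 0.93 and 0.83 for the guidance genes in these comparisons, in the same order, and 0.34, 0.46 and 0.34 for all genes. Their median with its sign was 0.19, 0.24 and -0.40. Ligands and receptors were not called equally often. Against the pair labelled Cry/Per/Nr1d_KO, 18 of 29 tested ligands (62.1%) and 7 of 20 tested receptors (35.0%) were called in Per/Nr1d_KO. Against the pair labelled Cry/Per_KO these were 17 (58.6%) and 9 (45.0%). Between the labelled pairs they were 13 (44.8%) and 11 (55.0%), so the order of the shares turned. This difference between ligands and receptors was not tested. Of the tested guidance genes, 12 passed the minimum level through 2 of the lines, and Epha3 and Sema4f through 1 line, in which they were high. Such genes had to differ between some of the lines, though not by a called amount in every comparison, so counts over the tested members are a description. Among the 35 that stood above the level in every line, 14 were called in Per/Nr1d_KO against the pair labelled Cry/Per/Nr1d_KO, 13 against the pair labelled Cry/Per_KO and 14 between these pairs. The shares of all genes given above were not limited in this way, so they are no background for these counts.

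**Figure D1:**
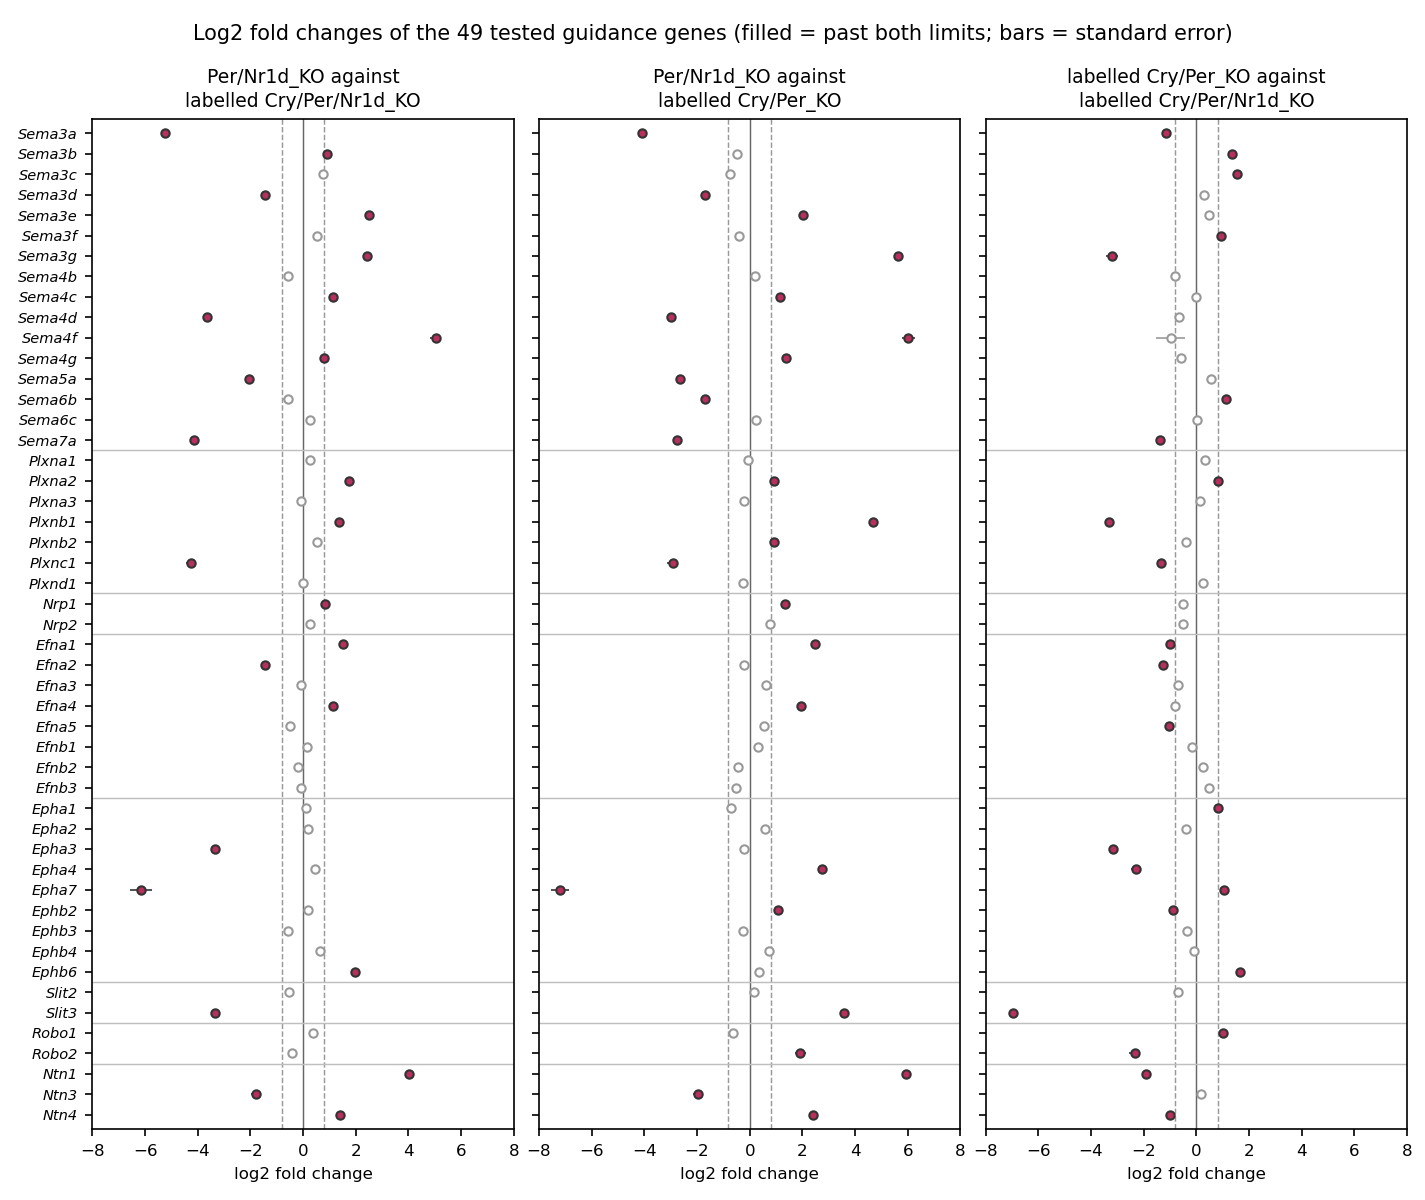
Log2 fold changes (horizontal axis) of the 49 tested guidance genes in the 3 comparisons, ordered by family, with bars for the standard error and dashed lines at the limit of 0.81; filled points passed both the adjusted p and the limit on the fold. In the left panel Sema4f (5.04) lies farthest to the right, with Ntn1 (4.02) next to it, and Epha7 farthest to the left, ahead of Sema3a (-5.25); the place of Epha7, with 0 and 3 counts in Per/Nr1d_KO, depends on the prior count of the fit. Slit3 (-6.95) lies farthest out in the right panel.

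Among the 7 class 3 semaphorins, the most abundant per kilobase in the pair labelled Cry/Per/Nr1d_KO was Sema3a, a repellent that signals through neuropilin-1 and A-type plexins. Sema3a (chr5:13124822-13603485, GRCm38) stood at 10227 and 9924 normalized counts in the pair labelled Cry/Per_KO, 21316 and 23353 in the pair labelled Cry/Per/Nr1d_KO, and 560.2 and 607 in Per/Nr1d_KO. The 3 lines did not overlap, and Per/Nr1d_KO was lower by 38.3-fold and 17.3-fold than the pairs labelled Cry/Per/Nr1d_KO and Cry/Per_KO. The log2 fold changes were -5.25 (SE 0.06, edgeR adjusted p = 3.7e-18) and -4.10 (SE 0.06, edgeR adjusted p = 3.7e-17). Between the other pairs it was -1.15 (SE 0.05, edgeR adjusted p = 3.1e-11), lower in the pair labelled Cry/Per_KO. Sema3e, which binds plexin-D1 without a neuropilin, lies on the same chromosome from 14025276 to 14256689 and had the opposite order. It had 630.0 and 631 normalized counts in the pair labelled Cry/Per_KO, 432 and 471 in the pair labelled Cry/Per/Nr1d_KO, and 2553 and 2575 in Per/Nr1d_KO. Per/Nr1d_KO was higher by a log2 fold change of 2.51 (SE 0.07, edgeR adjusted p = 5.1e-14) than the pair labelled Cry/Per/Nr1d_KO and of 2.02 (SE 0.07, edgeR adjusted p = 3.7e-13) than the pair labelled Cry/Per_KO.

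The remaining class 3 genes on chromosome 5 also moved apart. Sema3d (12383161 to 12588953) was lowest in Per/Nr1d_KO, at 97.6 and 96.3 normalized counts, against 262 and 259.9 (labelled Cry/Per/Nr1d_KO) and 309 and 325 (labelled Cry/Per_KO), a called difference in both cases. Sema3c (17574816 to 17730268) was highest in the pair labelled Cry/Per_KO at 7239 and 6945 normalized counts, lowest in the pair labelled Cry/Per/Nr1d_KO at 2350 and 2540, and between them in Per/Nr1d_KO at 4195 and 4149. Only the 2.90-fold difference between the labelled pairs passed the limit, with a log2 fold change of 1.54 (SE 0.05, edgeR adjusted p = 1.9e-12). The genes tested on chromosome 5 as a whole had medians of 0.17, 0.08 and 0.09 in the comparisons with labelled Cry/Per/Nr1d_KO, with labelled Cry/Per_KO and between these pairs. Sema3g, best known from arterial endothelium, was the class 3 gene with the widest relative range. It had 14.5 and 11.8 normalized counts in the pair labelled Cry/Per_KO, 123 and 118 in the pair labelled Cry/Per/Nr1d_KO, and 644 and 658 in Per/Nr1d_KO. The last were higher by 49.6-fold than the first and by 5.40-fold than the second, and all 3 comparisons were called. Sema3b and Sema3f, close together on chromosome 9, were both highest in the pair labelled Cry/Per_KO, where Sema3f had 5254 and 5750 normalized counts and Sema3b 424 and 452. They were lowest in the pair labelled Cry/Per/Nr1d_KO, at 2940 and 2775 for Sema3f and 185 and 154 for Sema3b. Between these pairs the log2 fold change was 1.36 for Sema3b (SE 0.11, edgeR adjusted p = 4.2e-08) and 0.94 for Sema3f (SE 0.05, edgeR adjusted p = 6.4e-10), and the median of chromosome 9 was 0.38. With that median subtracted, Sema3b stood at 0.98 and Sema3f at 0.57, inside the limit. In Per/Nr1d_KO Sema3b had 323 and 311 normalized counts, a called log2 fold change of 0.89 against the pair labelled Cry/Per/Nr1d_KO that became 0.78 and was no longer called without replicate 2 of those libraries. The summed level of class 3 semaphorins was 24098 and 24039 normalized counts (labelled Cry/Per_KO), 27607 and 29671 (labelled Cry/Per/Nr1d_KO), and 12568 and 12506 in Per/Nr1d_KO. The low sum in Per/Nr1d_KO rests on Sema3a. Without it the sum was 13871 and 14115 (labelled Cry/Per_KO), 6291 and 6318 (labelled Cry/Per/Nr1d_KO), and 12008 and 11899 in Per/Nr1d_KO.

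**Figure D2:**
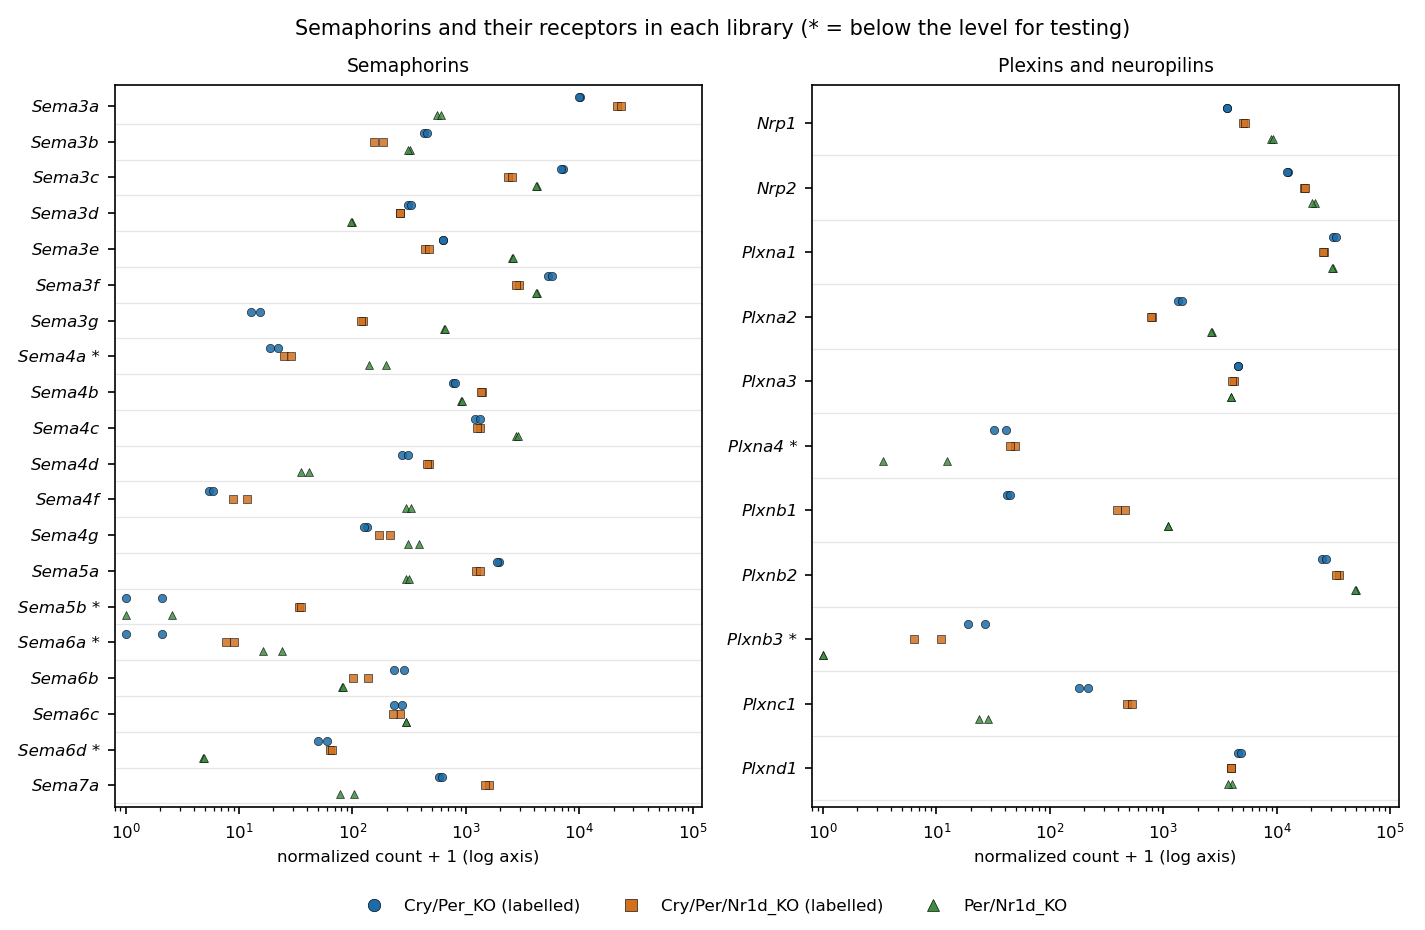
Normalized counts plus 1 (horizontal log axis) of the semaphorins, plexins and neuropilins, with a point for each of the 6 libraries; an asterisk marks genes below a mean of 100 normalized counts. Replicate points nearly coincide for abundant genes, and the Per/Nr1d_KO triangles lie apart from both other lines for Sema3a, Sema7a, Sema4d, Sema4f and Plxnc1.

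Class 4 semaphorins were called in Per/Nr1d_KO in 4 of 5 tested genes against each of the other pairs, beside 20.7% of all genes against the pair labelled Cry/Per/Nr1d_KO and 29.0% against the pair labelled Cry/Per_KO. Between those pairs 4 stayed inside the limit, with log2 fold changes from -0.80 to -0.03, while Sema4f stood past it at -0.98 (SE 0.54) with an edgeR adjusted p of 0.11. Sema4f, a transmembrane semaphorin of neurons and glia, was all but silent in 4 libraries. It had 4.45 and 4.91 normalized counts (labelled Cry/Per_KO), 10.7 and 7.77 (labelled Cry/Per/Nr1d_KO), and 293 and 329 in Per/Nr1d_KO. Per/Nr1d_KO was higher by 66.4-fold than the first (log2 fold change 6.02, SE 0.24, edgeR adjusted p = 3.3e-12) and by 33.7-fold than the second (5.04, SE 0.21, edgeR adjusted p = 6.2e-12). Sema4f passed the level for testing only through Per/Nr1d_KO. Sema4d, the ligand of plexin-B1, ran the other way. It had 272 and 310.3 normalized counts (labelled Cry/Per_KO), 471 and 455 (labelled Cry/Per/Nr1d_KO), and 40.6 and 33.9 in Per/Nr1d_KO, which was lower by 12.4-fold and 7.81-fold than labelled Cry/Per/Nr1d_KO and labelled Cry/Per_KO. Sema4c, a ligand of plexin-B2, was higher in Per/Nr1d_KO, by 2.24-fold than in the pair labelled Cry/Per_KO and by 2.19-fold than in the other, with 2788 and 2860 normalized counts there and 1191 to 1337 in the 4 others, and 7.27% of its exon bases also lie in a gene on the opposite strand. Sema4g had 383 and 307 normalized counts in Per/Nr1d_KO, 213 and 172 in the pair labelled Cry/Per/Nr1d_KO and 135 and 125 in the pair labelled Cry/Per_KO. Its 1.79-fold difference between the first and the second was called only just past the limit, and fell inside it without replicate 1 of Per/Nr1d_KO (log2 fold change 0.66) or replicate 2 of the pair labelled Cry/Per/Nr1d_KO (0.68). Sema4b, with 767 to 1381 normalized counts, was called nowhere.

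Of the 4 tested genes of classes 5 to 7, 3 stood lowest in Per/Nr1d_KO. Sema7a, which is held by a lipid anchor and binds plexin-C1 and beta-1 integrins, had 573 and 619.6 normalized counts (labelled Cry/Per_KO), 1603 and 1465 (labelled Cry/Per/Nr1d_KO), and 103 and 77.3 in Per/Nr1d_KO. The groups did not overlap, and the log2 fold change of Per/Nr1d_KO was -4.13 (SE 0.12, edgeR adjusted p = 4.8e-14) against the pair labelled Cry/Per/Nr1d_KO and -2.77 (SE 0.13, edgeR adjusted p = 1.3e-11) against the pair labelled Cry/Per_KO. Sema7a lies on chromosome 9, whose medians in these comparisons were -0.46 and -0.84, and with them subtracted it stood at -3.67 and -1.93. Sema5a, a semaphorin with thrombospondin repeats, had 1943 and 1868 normalized counts (labelled Cry/Per_KO), 1231 and 1342 (labelled Cry/Per/Nr1d_KO), and 295 and 314 in Per/Nr1d_KO, 6.25-fold and 4.22-fold below the first and the second. Sema6b was highest in the pair labelled Cry/Per_KO, at 233 and 284 normalized counts, against 136 and 99.95 (labelled Cry/Per/Nr1d_KO) and 79.8 and 81.3 in Per/Nr1d_KO, and Sema6c had 225 to 297 in all 6 libraries and was called nowhere. Summed over the 7 genes of classes 5 to 7, the level was 3041 and 3092 normalized counts (labelled Cry/Per_KO), 3336 and 3238 (labelled Cry/Per/Nr1d_KO), and 792 and 798.5 in Per/Nr1d_KO. The summed level of a list of 7 neuronal markers, 2 of them tested, was 5464 to 6113 normalized counts in the 4 other libraries and 1058 and 1019 in Per/Nr1d_KO. The tested markers differed from each other. Map2 was called lower in Per/Nr1d_KO in both comparisons (355 and 333 against 3548 to 5138 normalized counts). Tubb3, with 359 and 356 (labelled Cry/Per_KO), 1959 and 1776 (labelled Cry/Per/Nr1d_KO), and 676 and 664 in Per/Nr1d_KO, was called higher there than in the first and lower than in the second. Among the markers not tested, Stmn2 had 248.6 and 252 normalized counts in the pair labelled Cry/Per/Nr1d_KO and 3.80 to 26.7 in the 4 other libraries, Syt1 lay between 7.89 and 90.1 and Elavl3 between 6.21 and 16.7, while Snap25 had no count in any library and Rbfox3 had 1 count in 1. The part of such cells or genes in the semaphorin values was not tested.

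Plexins are the signalling receptors of semaphorins, and Plxnb2 and Plxna1 were, with the Eph receptor gene Epha2, the guidance genes with the highest levels per kilobase of exon in every line. On that scale Plxnb2 stood at 3366 normalized counts in the pair labelled Cry/Per_KO, 4457 in the pair labelled Cry/Per/Nr1d_KO and 6404 in Per/Nr1d_KO, and Plxna1 at 3565, 2864 and 3440. Plxnb2 was called in 1 comparison: Per/Nr1d_KO, with 49928 and 48947 normalized counts, was 1.90-fold higher than the pair labelled Cry/Per_KO, with 25044 and 26929. Plxna1 (25612 to 33236), Plxna3 (3906 to 4575) and Plxnd1, the receptor of Sema3e (3735 to 4788), were called nowhere, and 10.7% of the exon bases of Plxna1 also lie in a gene on the opposite strand. The rarer plexins differed far more. Plxnb1, the receptor of Sema4d, had 41.2 and 43.2 normalized counts (labelled Cry/Per_KO), 457 and 386 (labelled Cry/Per/Nr1d_KO), and 1101 and 1102 in Per/Nr1d_KO. All 3 lines were apart, with log2 fold changes of 4.70 (SE 0.13, edgeR adjusted p = 3.5e-14) and 1.38 (SE 0.09, edgeR adjusted p = 1.6e-09) in Per/Nr1d_KO against the first and the second, and -3.32 (SE 0.15, edgeR adjusted p = 3.1e-11) between these. Its ligand Sema4d, above, was lowest in the line in which Plxnb1 was highest. Plxnc1, the receptor of Sema7a, had 216 and 179.7 normalized counts (labelled Cry/Per_KO), 476 and 526 (labelled Cry/Per/Nr1d_KO), and 22.8 and 27.6 in Per/Nr1d_KO. This is the order of Sema7a itself, and Plxnc1 was 19.9-fold and 7.84-fold lower in Per/Nr1d_KO than in the pairs labelled Cry/Per/Nr1d_KO and Cry/Per_KO. Plxna2 had 1344 and 1448 normalized counts (labelled Cry/Per_KO), 788 and 779.6 (labelled Cry/Per/Nr1d_KO), and 2667 and 2619 in Per/Nr1d_KO, called in every comparison. Between the labelled pairs its log2 fold change of 0.83 became 0.78, inside the limit, without replicate 2 of the pair labelled Cry/Per_KO.

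The neuropilins, co-receptors of class 3 semaphorins that also bind VEGF, were both highest in Per/Nr1d_KO. Nrp1 had 3614 and 3646 normalized counts (labelled Cry/Per_KO), 5000 and 5185 (labelled Cry/Per/Nr1d_KO), and 8845 and 9332 in Per/Nr1d_KO. These last libraries stood above the first by 1.32 on the log2 scale (SE 0.05, edgeR adjusted p = 7.9e-13). Above the second it was 0.84 (SE 0.05, edgeR adjusted p = 2.3e-10), which became 0.79 and passed the limit no longer without replicate 2 of Per/Nr1d_KO. Nrp2 had 12549 and 12397 normalized counts (labelled Cry/Per_KO), 17413 and 17604 (labelled Cry/Per/Nr1d_KO), and 21517 and 20551 in Per/Nr1d_KO, a difference of 1.69-fold at most, and was called nowhere. Sema3a, a ligand of Nrp1, thus stood lowest in the line with the most Nrp1 RNA.

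The 3 tested netrins were called in Per/Nr1d_KO against each of the other pairs, beside 20.7% of all genes against the pair labelled Cry/Per/Nr1d_KO and 29.0% against the pair labelled Cry/Per_KO, and Ntn3 passed the level for testing through 2 lines. Ntn1 (chromosome 11, from 68209364 to 68386826), the founding netrin, had 203 and 218 normalized counts (labelled Cry/Per_KO), 797 and 787 (labelled Cry/Per/Nr1d_KO), and 13202 and 12496 in Per/Nr1d_KO. The 3 lines formed 3 separate levels. Per/Nr1d_KO was 61.1-fold higher than the first (log2 fold change 5.93, SE 0.07, edgeR adjusted p = 1.5e-18) and 16.2-fold higher than the second (4.02, SE 0.06, edgeR adjusted p = 1.5e-17). Between the labelled pairs it was -1.91 (SE 0.08, edgeR adjusted p = 1.4e-11). Ntn4, a basement membrane netrin, kept the same order, with 283 and 265, 522 and 561, and 1449 and 1440 normalized counts, and was called in all 3 comparisons. Ntn3 was instead lowest in Per/Nr1d_KO, with 58.3 and 47.3 normalized counts against 173 to 227 in the 4 other libraries; 2.72% of its exon bases also lie in a gene on the opposite strand. As a sum over the netrins, the level was 669 and 713 normalized counts (labelled Cry/Per_KO), 1503 and 1538 (labelled Cry/Per/Nr1d_KO), and 14709 and 13984 in Per/Nr1d_KO, and without Ntn1 the last were 1507 and 1488. Of 6 netrin receptors, listed separately, 3 were tested, and Dcc and Unc5d had no count in any library. Unc5b had 3520 and 3719 normalized counts (labelled Cry/Per_KO), 7507 and 6720 (labelled Cry/Per/Nr1d_KO), and 20030.3 and 20179 in Per/Nr1d_KO, called higher there in both comparisons. Unc5c was called nowhere. Neo1, which encodes neogenin, stood at 22805 and 22435, 14124 and 14738, and 9116 and 8927 normalized counts in that order, and was called lower in Per/Nr1d_KO only against the pair labelled Cry/Per_KO. It lies on chromosome 9, and with that chromosome's median subtracted its log2 fold change of -1.33 became -0.49, inside the limit.

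Of the 49 tested guidance genes, Slit3 had the greatest fold difference between the labelled Cry/Per_KO and Cry/Per/Nr1d_KO pairs. It lies on chromosome 11 from 35121456 to 35708507 and had 27.8 and 21.6 normalized counts in the pair labelled Cry/Per_KO, 3003 and 3080 in the pair labelled Cry/Per/Nr1d_KO, and 297 and 297 in Per/Nr1d_KO. The first were 123-fold below the second (log2 fold change -6.95, SE 0.11, edgeR adjusted p = 8.9e-16). Per/Nr1d_KO lay between them, 10.2-fold below the pair labelled Cry/Per/Nr1d_KO and above the pair labelled Cry/Per_KO by 3.59 on the log2 scale. Slit2, the main Slit of these cells, varied much less, with 9565 and 9505, 15072 and 15447, and 10449 and 10642 normalized counts in this order, and was called nowhere. Per kilobase of exon, Slit2 stood at 375 and Slit3 at 4.07 normalized counts in the pair labelled Cry/Per_KO, and at 599.99 and 501 in the pair labelled Cry/Per/Nr1d_KO. Their receptors Robo1 and Robo2, both on chromosome 16, went in opposite directions between the labelled pairs. Robo1 (72027518 to 73047491) had 1237 and 1186 normalized counts (labelled Cry/Per_KO), 570.0 and 622 (labelled Cry/Per/Nr1d_KO), and 791 and 766 in Per/Nr1d_KO. For Robo2 (73891976 to 75447443) the normalized counts were 37.8 and 24.6, then 158 and 157, then 115 and 119. Between the labelled Cry/Per_KO and Cry/Per/Nr1d_KO pairs the log2 fold change was 1.03 for Robo1 (SE 0.08, edgeR adjusted p = 1.1e-08) and -2.35 for Robo2 (SE 0.20, edgeR adjusted p = 4.2e-08). Robo2 was also 3.76-fold higher in Per/Nr1d_KO than in the pair labelled Cry/Per_KO.

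**Figure D3:**
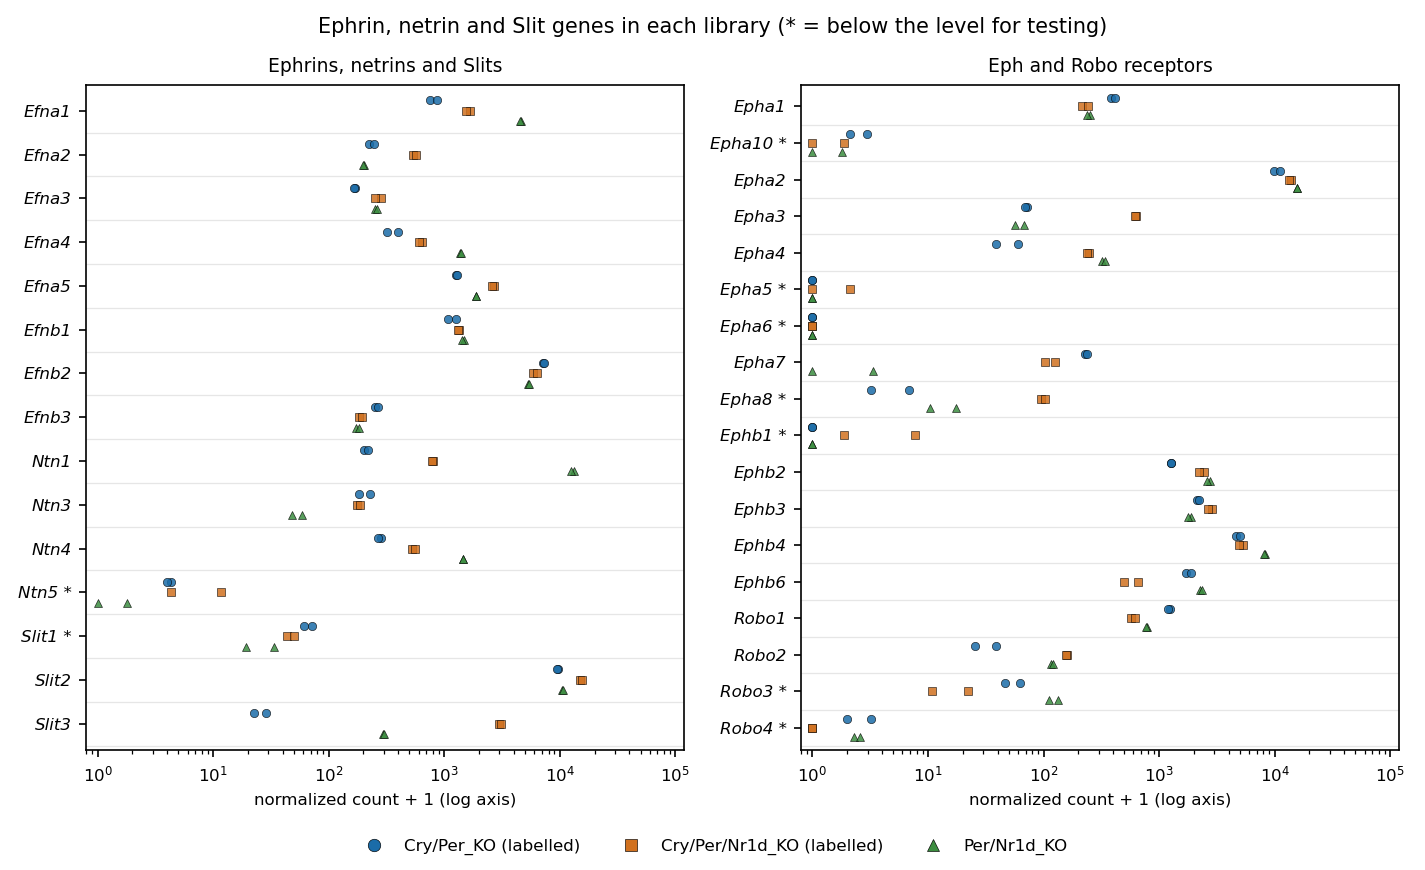
Normalized counts plus 1 (horizontal log axis) of ephrins, netrins, Slits, Eph receptors and Robo receptors, a point per library; an asterisk marks genes below a mean of 100 normalized counts. Ntn1 reaches 13202 and 12496 in Per/Nr1d_KO, Slit3 ranges from 21.6 to 3080 across the lines, and the 3 ephrin-B genes show little spread.

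All 8 ephrin genes stood above the level for testing in every line. Of the 5 in the A class, 3 were called in Per/Nr1d_KO against the pair labelled Cry/Per/Nr1d_KO, 2 against the pair labelled Cry/Per_KO and 3 between these pairs, beside 20.7%, 29.0% and 16.8% of all genes, whereas the 3 of the B class kept inside the limit throughout. Efna1, a ligand of EphA2 that is induced in many cells by inflammatory signals, had 757 and 863 normalized counts (labelled Cry/Per_KO), 1666 and 1540 (labelled Cry/Per/Nr1d_KO), and 4576 and 4571 in Per/Nr1d_KO. The last were higher by a log2 fold change of 2.49 (SE 0.07, edgeR adjusted p = 3.2e-14) than the first and of 1.51 (SE 0.06, edgeR adjusted p = 7.8e-12) than the second. Efna4 stood at 321 and 397, 641 and 606, and 1355 and 1407 normalized counts in this order, 3.85-fold and 2.21-fold higher in Per/Nr1d_KO. Efna3, which lies between them, had 168 and 166, 285 and 249.9, and 251 and 259.6 normalized counts, and was called nowhere. These 3 genes lie close together on chromosome 3 from 89271730 to 89338028, and between the labelled pairs their log2 fold changes were -0.98 for Efna1, -0.69 for Efna3 and -0.79 for Efna4, of which only the first passed the limit. The 577 genes tested on chromosome 3 had a median log2 fold change of -0.65 in that comparison. With it subtracted, Efna1 stood at -0.34, Efna3 at -0.04 and Efna4 at -0.15. In Per/Nr1d_KO against the pair labelled Cry/Per_KO the median of chromosome 3 was 0.88, and its subtraction left Efna1 at 1.62, Efna3 at -0.26 and Efna4 at 1.06. Exons of genes on the opposite strand cover 14.1% of Efna3 and 10.5% of Efna4.

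Efna2 and Efna5 were highest in the pair labelled Cry/Per/Nr1d_KO. Efna2 had 221 and 244 normalized counts (labelled Cry/Per_KO), 539.8 and 569 (labelled Cry/Per/Nr1d_KO), and 203 and 199 in Per/Nr1d_KO, called lower in both other lines than in the second. For Efna5, a ligand of several EphA receptors, the values were 1269 and 1289, 2705 and 2605, and 1894 and 1868 normalized counts, and the 2.08-fold difference between the labelled pairs was called. The B class comprises the ligands of EphB receptors and EphA4. Efnb2, an arterial marker in vessels, had 7120 and 7286 normalized counts (labelled Cry/Per_KO), 5864 and 6379 (labelled Cry/Per/Nr1d_KO), and 5298 and 5408 in Per/Nr1d_KO. Its log2 fold changes were between -0.43 and 0.24. Those of Efnb1, with 1072 to 1489 normalized counts, were between -0.18 and 0.31, and those of Efnb3, with 172 to 266, between -0.54 and 0.48.

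Among the Eph receptors, Epha2 had the highest level per kilobase of exon, at 2243, 2912 and 3312 normalized counts, and the rarer EphA genes differed most. Epha2, the main receptor of ephrin-A1, had 9937 and 11028 normalized counts (labelled Cry/Per_KO), 13972 and 13247 (labelled Cry/Per/Nr1d_KO), and 15470 and 15493 in Per/Nr1d_KO, and its differences of 1.14-fold to 1.48-fold stayed inside the limit. Epha7 (chromosome 4, from 28813066 to 28967503) had 228 and 236 normalized counts (labelled Cry/Per_KO), 102 and 124 (labelled Cry/Per/Nr1d_KO), and 0 and 2.37 in Per/Nr1d_KO, the last from 0 and 3 counts. From the counts, Per/Nr1d_KO was lower than the pair labelled Cry/Per_KO by a ratio of 159 (95% exact interval 54.1 to 775) and than the pair labelled Cry/Per/Nr1d_KO by 76.8 (25.9 to 375), intervals that cover counting error only. In edgeR's test both differences had adjusted p values of 2.6e-11 and 2e-09. Between the labelled pairs Epha7 was 2.05-fold higher in the pair labelled Cry/Per_KO. Epha3, a receptor of ephrin-A5, stood out in the pair labelled Cry/Per/Nr1d_KO alone, with 626 and 617 normalized counts against 71.2 and 67.8 (labelled Cry/Per_KO) and 67.2 and 56.0 in Per/Nr1d_KO. The log2 fold change was -3.16 (SE 0.12, edgeR adjusted p = 9.5e-12) for labelled Cry/Per_KO and -3.36 (SE 0.13, edgeR adjusted p = 1.7e-12) for Per/Nr1d_KO, and -0.20 (SE 0.18, edgeR adjusted p = 0.32) between these lines. Epha3 passed the level for testing only through the pair in which it was high. Epha4, which binds ephrins of both classes, was instead low in the pair labelled Cry/Per_KO, with 37.8 and 58.9 normalized counts against 245 and 237 (labelled Cry/Per/Nr1d_KO) and 321 and 342 in Per/Nr1d_KO. There it was 4.98-fold below the pair labelled Cry/Per/Nr1d_KO and 6.85-fold below Per/Nr1d_KO. Epha1 had 383 and 418 normalized counts (labelled Cry/Per_KO), 212 and 241 (labelled Cry/Per/Nr1d_KO), and 249.7 and 238 in Per/Nr1d_KO. Its difference of 1.77-fold between the labelled pairs fell inside the limit without replicate 2 of labelled Cry/Per_KO (log2 fold change 0.76), without replicate 1 of labelled Cry/Per/Nr1d_KO (0.73), and with the chromosome 6 median of 0.34 subtracted (0.48), and 6.01% of its exon bases lie in Zyx on the opposite strand.

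Of the EphB receptors, Ephb6, whose kinase domain is inactive, differed most. It had 1706 and 1907 normalized counts (labelled Cry/Per_KO), 653 and 493 (labelled Cry/Per/Nr1d_KO), and 2254 and 2331 in Per/Nr1d_KO. The pair labelled Cry/Per/Nr1d_KO was lowest, with log2 fold changes of 1.65 (SE 0.10, edgeR adjusted p = 1.1e-09) for labelled Cry/Per_KO and 1.99 (SE 0.10, edgeR adjusted p = 5.2e-11) for Per/Nr1d_KO. Ephb2 was lowest in the pair labelled Cry/Per_KO, with 1264 and 1262 normalized counts against 2425 and 2219 (labelled Cry/Per/Nr1d_KO) and 2768 and 2581 in Per/Nr1d_KO, a called difference of 1.84-fold and 2.12-fold. Ephb3, with 1790 to 2842 normalized counts, and Ephb4, the receptor of ephrin-B2, with 4646 to 8216, were called nowhere, and Ephb4 in Per/Nr1d_KO came nearest, 1.69-fold above the pair labelled Cry/Per_KO.

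Altogether 14 tested guidance genes were called in no comparison, namely Sema4b, Sema6c, Plxna1, Plxna3, Plxnd1, Nrp2, Slit2, Efna3, Efnb1, Efnb2, Efnb3, Epha2, Ephb3 and Ephb4. Their differences were at most 1.74-fold, and a gene that was not called is not shown to be equal between the lines.

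The 15 genes below the level for testing include several that were found almost only in 1 line. Sema5b had 1 and 0 counts (labelled Cry/Per_KO), 37 and 31 (labelled Cry/Per/Nr1d_KO), and 0 and 2 in Per/Nr1d_KO. Epha8 had 2 and 6, 105 and 92, and 13 and 12 counts in this order. Sema4a, an immune semaphorin, had 19 and 18, 27 and 25, and 109 and 251 counts, the last 2 being 138 and 198 normalized counts. Robo3 was likewise highest in Per/Nr1d_KO at 133 and 110.5 normalized counts, against 61.2 and 45.2 (labelled Cry/Per_KO) and 9.77 and 21.1 (labelled Cry/Per/Nr1d_KO). Sema6d (3.80 and 3.95 normalized counts in Per/Nr1d_KO and 49.1 to 65.5 in the 4 others) and Plxna4 (11.4 and 2.37 against 31.2 to 47.9) were low in Per/Nr1d_KO. Plxnb3 had no count in Per/Nr1d_KO, 16 and 26 in the pair labelled Cry/Per_KO and 6 and 9 in the pair labelled Cry/Per/Nr1d_KO. Set against a floor of 3 counts over the group, Per/Nr1d_KO was at least 15.0-fold and at least 5.07-fold lower. Slit1 ran from 18.1 to 70.7 normalized counts, highest in the pair labelled Cry/Per_KO. Sema6a had 1 and 0 counts (labelled Cry/Per_KO), 9 and 6 (labelled Cry/Per/Nr1d_KO), and 12 and 29 in Per/Nr1d_KO, the last above the first by a ratio of 38.2 (95% exact interval 6.49 to 1550, counting error only). Ntn5 (0 to 10.7), Ephb1 (0 to 6.66), Robo4, an endothelial Robo (0 to 2.23), Epha10 (0 to 1.96) and Epha5 (0 to 1.11 normalized counts) were near 0 in every library, and Epha6 had no count at all.

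A list of 51 other genes of these pathways, of which 37 were tested, gave the surroundings of the ligands and receptors. In Per/Nr1d_KO 10 were called higher and 8 lower against the pair labelled Cry/Per/Nr1d_KO, beside 11.3% and 9.35% of all genes, and 12 higher and 10 lower against the pair labelled Cry/Per_KO, beside 15.2% and 13.8%. Between the labelled pairs 1 was called higher and 9 lower in the pair labelled Cry/Per_KO, beside 7.86% and 8.95%. The FLRT proteins, which bind UNC5 and Robo receptors on neighbouring cells, split. Flrt3 had 908 and 850 normalized counts (labelled Cry/Per_KO), 3265 and 3248 (labelled Cry/Per/Nr1d_KO), and 72.2 and 101 in Per/Nr1d_KO, and Flrt1 had 61.2 and 61.9, 539 and 652, and 1166 and 1090 in the same order. Flrt2 was also low in Per/Nr1d_KO, at 370.1 and 392 normalized counts against 2590 to 3724 in the 4 others. The 8 genes listed for Slit and Robo signalling were all tested. Against the pair labelled Cry/Per/Nr1d_KO, 4 were called higher in Per/Nr1d_KO: Srgap1, Srgap3, Nck2 and Enah. Against the pair labelled Cry/Per_KO, 4 were called higher there: Srgap1, Nck2, Enah and Gpc1. The shares of all genes called higher were the 11.3% and 15.2% just given. Srgap1, a GTPase-activating protein that binds Robo, had 2.23 and 1.96 normalized counts (labelled Cry/Per_KO), 39.95 and 41.1 (labelled Cry/Per/Nr1d_KO), and 1017 and 967 in Per/Nr1d_KO. It passed the level for testing only through Per/Nr1d_KO, where it was high, so its calls are a description. Enah, a regulator of actin filaments, had 4060 on average in the pair labelled Cry/Per_KO, 4306 in the pair labelled Cry/Per/Nr1d_KO and 19533 in Per/Nr1d_KO. Dpysl5, of the collapsin response mediator family, was highest in the pair labelled Cry/Per/Nr1d_KO, at 334 and 321 normalized counts against 26.8 to 63.8 in the others. Dpysl5 passed the level for testing only through that pair.

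Where a chromosome as a whole differed between lines, its guidance genes were set against its median. Chromosome 3 had medians of 0.24, 0.88 and -0.65 and chromosome 9 of -0.46, -0.84 and 0.38, in the comparisons of Per/Nr1d_KO with labelled Cry/Per/Nr1d_KO, of Per/Nr1d_KO with labelled Cry/Per_KO, and between these pairs. The tested members of chromosome 9 were spread on both sides of it: Plxnb1 was 4.70 and Sema7a -2.77 in Per/Nr1d_KO against the pair labelled Cry/Per_KO, and both stayed called with the median subtracted. Subtraction ended 3 calls between the labelled pairs (Efna1, Epha1 and Sema3f) and added 2 (Sema4d and Sema5a). Against the pair labelled Cry/Per/Nr1d_KO it ended those of Nrp1 and Sema4g and added Sema3f, and against the pair labelled Cry/Per_KO it ended those of Plxna2 and Plxnb2 and added Sema3c. Chromosome 14, which carries Sema3g, had medians of 0.52, 0.62 and -0.07 in the same 3 comparisons. Their subtraction took Sema3g from 2.43, 5.63 and -3.20 to 1.91, 5.01 and -3.13, and it stayed called. What moved whole chromosomes was not tested.

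**Figure D4:**
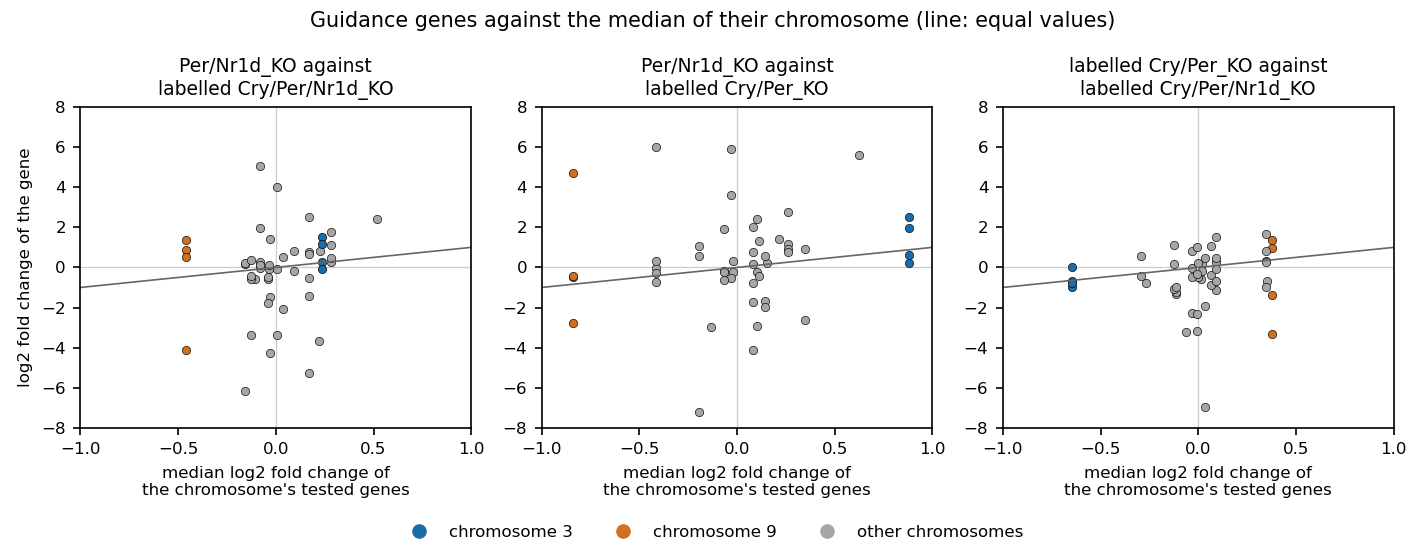
Log2 fold change of each tested guidance gene (vertical axis) against the median log2 fold change of all tested genes on its chromosome (horizontal axis), in the 3 comparisons, with a line at equal values. Between the labelled pairs the 3 ephrin-A genes of chromosome 3 (blue, median -0.65) lie within 0.34 below the line, and in every panel the genes of chromosome 9 (orange) are spread widely, with Plxnb1 and Sema7a farthest out.

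Promoter sequence was looked up because CLOCK and BMAL1 bind E-boxes and NR1D and ROR proteins bind elements that end in AGGTCA. RefSeq promoters (GRCm38.p6) were found for 56 of the 64 genes, with 72 start sites, and the 250 bases before each start were searched on both strands. The E-box letters CACGTG occurred in 4 of the 72 (5.56%) and in 6.02% of all 32851 promoters. The letters TAGGTCA occurred in 0 of the 72 and in 2.23% of all promoters, and AGGTCA, which TAGGTCA contains, in 11 (15.3%) and 14.0%. Ntn1 and 7 other guidance genes were not in the table. The promoters of Sema3a, Sema4f and Slit3, picked from genes with some of the widest differences, are shown with CpG dinucleotides in capitals. They hold 2, 4 and 35 of these dinucleotides, where the median was 15 over the 72 guidance promoters and 6 over all promoters. Those of Epha7 and Sema3g, which also had wide differences, hold 25 and 8 and are not shown. The start of Sema3a used here lies inside the span of the gene given above.
Sema3a, chr5:13396534-13396783, plus strand: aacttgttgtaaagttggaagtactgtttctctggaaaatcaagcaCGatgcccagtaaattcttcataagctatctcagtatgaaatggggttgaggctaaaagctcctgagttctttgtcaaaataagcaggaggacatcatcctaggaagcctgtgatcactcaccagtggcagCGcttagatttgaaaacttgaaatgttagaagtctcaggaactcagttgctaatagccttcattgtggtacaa
Sema4f, chr6:82939770-82940019, minus strand: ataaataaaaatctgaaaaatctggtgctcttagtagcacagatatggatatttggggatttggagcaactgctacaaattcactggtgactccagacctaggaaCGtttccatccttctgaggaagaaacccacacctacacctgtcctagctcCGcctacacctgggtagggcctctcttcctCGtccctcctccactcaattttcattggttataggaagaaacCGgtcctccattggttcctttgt
Slit3, chr11:35121206-35121455, plus strand: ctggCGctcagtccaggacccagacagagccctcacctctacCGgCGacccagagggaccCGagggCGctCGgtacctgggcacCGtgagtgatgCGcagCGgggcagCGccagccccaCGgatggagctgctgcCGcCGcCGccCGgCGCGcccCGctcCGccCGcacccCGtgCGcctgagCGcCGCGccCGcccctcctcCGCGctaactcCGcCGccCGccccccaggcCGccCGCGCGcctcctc

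Of the 4 guidance genes with an E-box in this window, Robo2 and Sema4b were tested and Sema6d and Epha8 were below the level for testing. The stretches around the E-box are shown with its letters in capitals, 18 to 13 bases before the start in Robo2 and 102 to 97 bases before it in Sema4b. The start of Sema4b used here lies inside the span of the gene, which begins at 80186870.
Robo2, chr16:75447294-75447341, minus strand: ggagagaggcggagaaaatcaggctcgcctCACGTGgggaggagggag
Sema4b, chr7:80198456-80198521, plus strand: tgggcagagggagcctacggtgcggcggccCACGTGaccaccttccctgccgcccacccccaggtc

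Robo2 had the lowest values in the pair labelled Cry/Per_KO (37.8 and 24.6 normalized counts) and Sema4b in the same libraries (767 and 804), called for the first gene and inside the limit for the second. A match of letters is a description of the sequence and does not show that a protein binds there.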

How the data were processed

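RNA was sequenced from 3 MEF lines, 2 libraries each, as poly-A selected, strand-specific single-end libraries. Per the labels and the study's methods, alignment by the authors used STAR and the mm10 genome and counting used featureCounts, and for each library 1 table of raw counts by Entrez gene ID was deposited. The strand setting and the treatment of reads that map to several places are not given in the sources used here. The authors also deposited 2 tables of their own DESeq2 1.22.2 comparisons (mean counts, log2 fold changes with their errors, p and adjusted p), which were not used. Columns that match no sample numbered 0. Totals ran from 53764390 to 85927236 counts per library with a median of 62471572, and libraries of a line varied by a biological coefficient of variation of 0.039. Counts limit the precision of low genes, and intervals cover counting error only.

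All genes were fitted at once with edgeR 4.0.16 in R 4.3.3: TMM normalization, quasi-likelihood test, all 6 libraries, no covariate, 11934 genes whose mean normalized count was 100 or more. A call needed a Benjamini-Hochberg adjusted p under 0.05 over these genes and a log2 fold change past 0.81. Standard errors were taken from the fold change and its test statistic. Gene positions and exon lengths came from the mouse GRCm38 annotation, promoters from RefSeq (GRCm38.p6). Every gene whose symbol fits the family names was kept, and each is named. The members, the list of other pathway genes and the marker lists were chosen with earlier results of these data known. On simulated data the fit recovered 200 of 200 changed genes for Per/Nr1d_KO against Cry/Per/Nr1d_KO and 199 of 200 against Cry/Per_KO, with 0 false calls among 11934 genes. Every simulated gene had the same biological coefficient of variation, 0.039, and every planted change lay past the limit on the fold. Such a simulation could hardly fail, so it checks the code and does not measure error rates in these data. The alternatives were DESeq2 1.42.0, other filters and scalings, a replicate block, exchanged labels, subtraction of each chromosome's median and leaving out each library.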

Additional observations from a re-analysis of the deposited data

How the results depend on the processing

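In this paragraph counts and values follow the order labelled Cry/Per_KO against labelled Cry/Per/Nr1d_KO, then Per/Nr1d_KO against labelled Cry/Per/Nr1d_KO, then Per/Nr1d_KO against labelled Cry/Per_KO. The 24, 25 and 26 guidance genes called by edgeR were the same genes with DESeq2 at an adjusted p under 0.05. With DESeq2 at an adjusted p under 1e-22, the study's own threshold, 14, 19 and 20 were called, and 1149, 1803 and 2592 of all. With no limit on the fold, 44, 43 and 45 guidance genes were called, and 9118, 9042 and 9793 of all. With the minimum mean set to 10, 27, 32 and 32 guidance genes were called and 3311, 3912 and 4996 of all, and with no filter 29, 35 and 34, and 3808, 4576 and 5590 of all. Median-of-ratios scaling and a fit of the compared groups alone each ended 1 call, that of Sema4g in the second comparison. Chromosome medians subtracted left 23, 24 and 25 guidance genes, and 1619, 2300 and 2716 of all, where 2006, 2468 and 3457 were called without it. Leaving out each library in turn gave 23 to 26, 24 to 25 and 26 to 27 guidance genes, and 1998 to 2042, 2451 to 2519 and 3434 to 3496 of all, with the remaining library of a line taken to vary like the others. Beyond the lost calls given with the genes above, Efna4 and Sema4b were also called in the first comparison without replicate 2 of either labelled pair, Sema3c in the second without replicate 2 of the pair labelled Cry/Per/Nr1d_KO, and Ephb4 in the third without replicate 2 of the pair labelled Cry/Per_KO. Deviations of same-numbered libraries from the mean of their line had correlations of -0.21, -0.10 and -0.024 between the lines. With 2 libraries per line, these values cannot show whether a number marks a shared preparation. With the replicate number as a block, the same 24, 25 and 26 guidance genes were called, and 2002, 2468 and 3457 of all. Outside the exchanged labels, 17 log2 fold changes of guidance genes changed sign, each uncalled both before and after.

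With exchanged labels the called log2 fold changes of the first comparison became 6.95 for Slit3, 3.32 for Plxnb1, 3.20 for Sema3g, 3.16 for Epha3, 2.35 for Robo2, 2.30 for Epha4, 1.91 for Ntn1, 1.36 for Sema7a, 1.34 for Plxnc1, 1.25 for Efna2, 1.15 for Sema3a, 1.05 for Efna5, 0.98 for both Ntn4 and Efna1, 0.88 for Ephb2, -0.83 for both Plxna2 and Epha1, -0.94 for Sema3f, -1.03 for Robo1, -1.05 for Epha7, -1.12 for Sema6b, -1.36 for Sema3b, -1.54 for Sema3c and -1.65 for Ephb6. In the second comparison Slit3 became 3.59, Robo2 1.93 and Sema3b -0.47, and in the third these became -3.35, -0.42 and 0.89, since exchange only renames the reference. Depth limits the 15 guidance genes below 100 normalized counts, which were not tested. The cause of each change of call was not tested.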
